A study of Mus musculus with 10 samples.

Results

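The integrin and laminin chains comprise the mouse genes whose array symbols name an integrin α or β chain (Itga, Itgb) or a laminin α, β or γ chain (Lama, Lamb, Lamc). They were 37 of the 19942 gene symbols on the array. Of its 26423 probes, 43 carried such a symbol, with 31 probes for 26 integrin chains and 12 probes for 11 laminin chains. The members were defined by symbol, although the choice was made with earlier results of these data known. RNA came from the left ventricles of male C57BL/6J mice, 8 weeks old at surgery, that had undergone transverse aortic banding (TAB), which narrows the aorta and overloads the ventricle with pressure, or a sham operation. TAB and sham hearts were compared on days 3, 5, 7, 14 and 28, and each of the 10 arrays held the RNA of a different combination of operation and day. The labels name no transgene or deletion, and the number of mice behind each sample was not given in the sources used here. The TAB sample titled day 14 has a condition label of 15 days and was taken as day 14. The defining cardiomyocyte genes were bright in every sample, as 7 of 7 listed markers summed to a normalized intensity of 212630.0 to 219730.0 in TAB and 216600.0 to 241210.0 in sham.

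Integrins are receptors that join the extracellular matrix or another cell to the cytoskeleton. Each is a pair of 1 α and 1 β chain, and the pairing sets the ligand. β1 pairs with most α chains, among them the collagen-binding, laminin-binding and some fibronectin-binding ones, whereas β2 is found on leukocytes with αL, αM, αX or αD. Laminins are cross-shaped trimers of an α, a β and a γ chain and form the base of basement membranes, including those that wrap each cardiomyocyte and capillary. In heart muscle the α7β1 integrin and dystroglycan hold the cell to laminins that contain the α2 chain, and laminins with the α4 chain are typical of vessels.

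Probe intensities were scaled between arrays, and a probe was kept when its scaled intensity was at least 1 on all 10 arrays. This left 19976 probes, and 36 member probes of 31 genes. Levels below are normalized intensities, which have no absolute unit and were compared only between samples, for the same probe or the same sum of marker probes. Such a sum is set mostly by its brightest probes. A ratio is the log2 of TAB over sham on the same day. An array was said to have found a probe when its deposited flag was not negative, and 31 of the 36 member probes were found on all 10 arrays. The probes of Itga2, Itga10, Itga2b, Itgad and Itgb8, and probe 2 of Lama3, fell below the limit and were found on no array. Itga4 passed the limit although it was found on no array.

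Upstream sequences of 4 chains that differed between TAB and sham are shown, because Itgam and Itgax encode related leukocyte chains that lie on the same chromosome, Itga11 encodes a collagen receptor chain whose probes were both called, and Itgb5 was called by 3 probes. They are RefSeq sequences of GRCm38.p6, 5′ to 3′, that end at the base before the annotated start. Capitals mark matches to the PU.1 core GAGGAA, to the Sp1 type motif GGGCGG, to the AP-1 site TGACTCA or to the promoter motif TATAAA. Each was searched on both strands, and none of these motifs lies within another.
Itgam chr7:128062390-128062639 (+ strand): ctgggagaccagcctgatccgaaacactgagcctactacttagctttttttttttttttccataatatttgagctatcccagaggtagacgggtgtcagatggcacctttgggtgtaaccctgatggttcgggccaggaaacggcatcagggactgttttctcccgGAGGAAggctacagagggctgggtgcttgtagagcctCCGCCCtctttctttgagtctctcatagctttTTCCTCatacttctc
Itgax chr7:128129300-128129525 (+ strand): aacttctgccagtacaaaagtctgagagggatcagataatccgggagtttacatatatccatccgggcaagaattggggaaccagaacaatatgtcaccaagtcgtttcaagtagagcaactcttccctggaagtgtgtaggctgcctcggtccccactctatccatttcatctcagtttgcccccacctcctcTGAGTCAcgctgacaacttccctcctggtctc
Itga11 chr9:62677605-62677854 (+ strand): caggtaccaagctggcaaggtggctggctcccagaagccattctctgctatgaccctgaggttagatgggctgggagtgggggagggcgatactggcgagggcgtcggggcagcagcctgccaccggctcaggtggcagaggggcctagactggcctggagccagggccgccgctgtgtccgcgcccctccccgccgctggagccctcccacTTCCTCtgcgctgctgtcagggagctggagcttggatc
Itgb5 chr16:33829415-33829664 (+ strand): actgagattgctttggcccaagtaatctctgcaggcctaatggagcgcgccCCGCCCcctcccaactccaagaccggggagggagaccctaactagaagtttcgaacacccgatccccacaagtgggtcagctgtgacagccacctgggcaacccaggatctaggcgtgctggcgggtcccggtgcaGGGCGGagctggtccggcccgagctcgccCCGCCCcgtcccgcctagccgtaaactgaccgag

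GAGGAA or its reverse complement occurred 2 times before Itgam and 1 time before Itga11, GGGCGG or its reverse complement 1 time before Itgam and 3 times before Itgb5, and the AP-1 site 1 time before Itgax. Outside chromosome 18, the table held 26 such promoters for 23 of the 37 member genes. Chromosome 18 was left out for the members but not for the set of all promoters. In the 250 bases before the start, GAGGAA was present in 13 of these 26 promoters and in 23.3% of all 32851, GGGCGG in 9 and in 32.7%, TGACTCA in 1 and in 4.46%, and TATAAA in 0 and in 12.4%. A match is a run of letters and was not tested as a binding site. Among the chains called below, Itgb2, Lama1, Lama4 and Lamc1 are not in that table.

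Of the 36 probes, 13 were higher and 2 lower in TAB over the 5 days. The 13 probes stood for 10 chains, which were the leukocyte chains Itgam and Itgb2, the collagen receptor chains Itga1 and Itga11, Itga9, Itgb1, Itgb5 and the laminin chains Lama4, Lamb1 and Lamc1. The 2 lower chains were Lama1 and Lamb3. The mean TAB effect was fitted in limma with the day as a block over all kept probes, and a probe was called at an adjusted p below 0.05. Of all 19976 probes, 7.47% were called higher and 6.73% lower, against 36.1% and 5.56% of the member probes. The 5 days served as the replicates, so the error holds the change of the effect with time as well as the spread between samples. Setting values below 1 to 1, in place of leaving those probes out, left 4 member calls and 371 calls over all probes. The calls also depended on the days, since without day 3, 5 or 7 in turn 0 member probes were called, without day 14 there were 2 and without day 28 there were 12. All 15 estimates kept their sign whichever day was left out, and over all probes these fits made 13, 35, 23, 184 and 2773 calls.

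**Figure D1:**
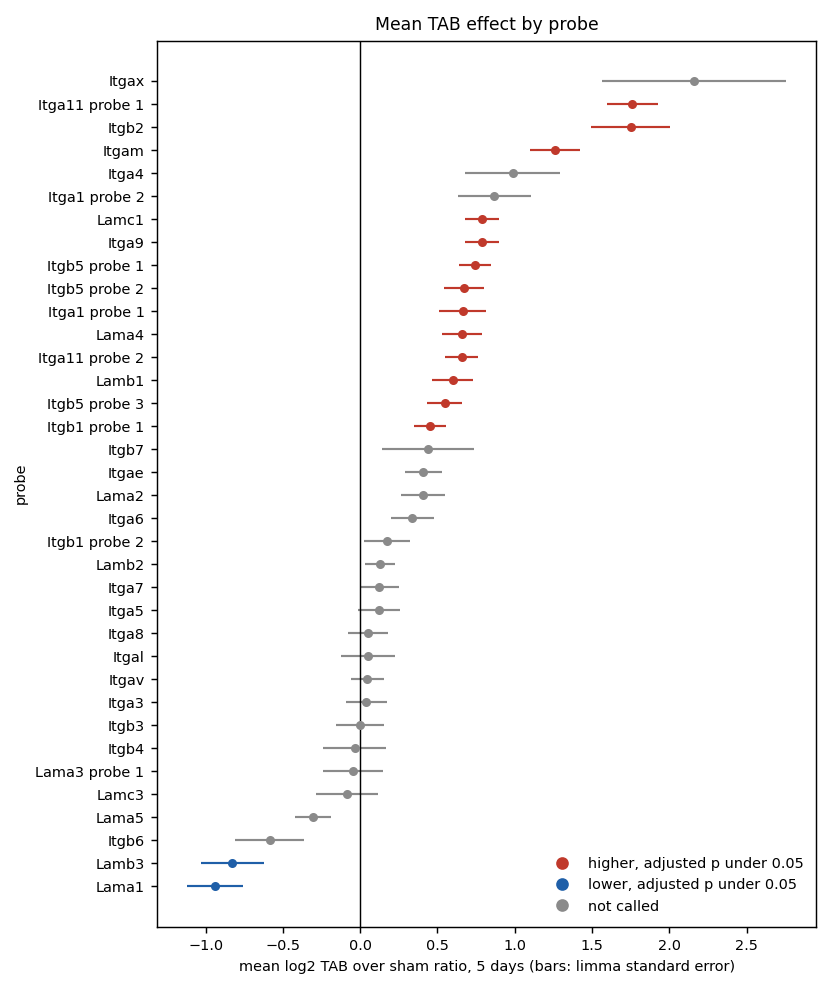
Mean log2 TAB over sham ratio over the 5 days (x axis) for the 36 kept member probes (y axis, sorted), with bars for the limma standard error. Probes called higher in TAB are red, probes called lower are blue and the others grey; Itgax, found on 2 TAB arrays and no sham array, lies farthest to the right but was not called, and Lama1 lies farthest to the left.

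Most member probes leaned towards TAB. The mean ratio was above 0 for 28 of 36 probes, with 20 probes higher in TAB on each of the 5 days and 3 lower on each. The median over the member probes was 0.41, beside -0.05 over all kept probes. Taken by day, from day 3 to day 28, the member median was 0.37, 0.51, 0.37, 0.31 and 0.27, while that of all probes was between -0.08 and -0.02. The levels of TAB and sham did not overlap for 14 probes that were higher in TAB and for 1 that was lower, that is 38.9% and 2.78% of the member probes, beside 8.78% and 7.59% of all probes. These 15 were the called probes without Itgb5 probe 2 and Lamb3, and with Itgax and Lama2 in addition.

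**Figure D2:**
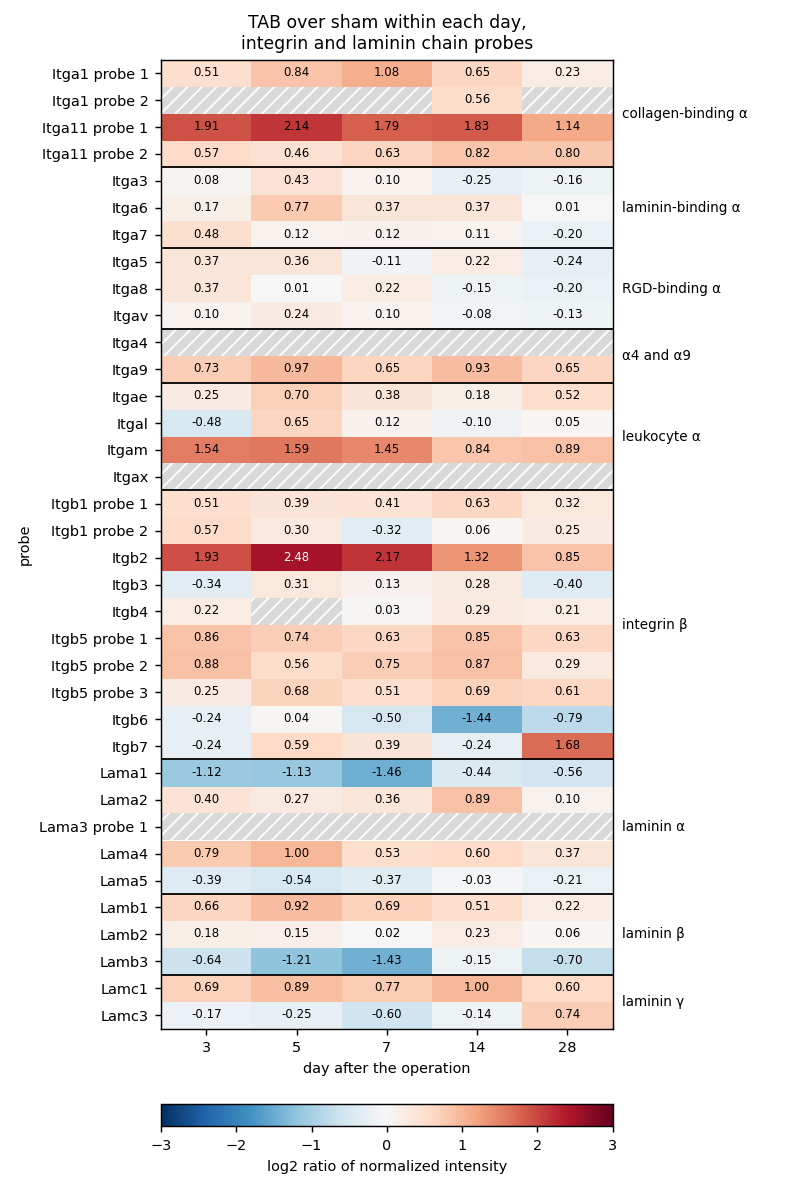
Log2 ratio of TAB over sham normalized intensity for each kept member probe (rows, grouped by chain type) on days 3, 5, 7, 14 and 28 (columns), with 1 sample per operation and day; red is higher in TAB and blue lower. Itgb2 reached 2.48 on day 5, Itga11 probe 1 stayed above 1.1 on each day, and Lama1 was below 0 on each day. Hatched cells are days on which the TAB or the sham array did not find the probe, which include all those of Itga4 and Itgax.

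Of the leukocyte chains, Itgam and Itgb2 rose, with their highest TAB levels on days 3 to 7. Itgam encodes αM (CD11b), which pairs with β2 as Mac-1 on monocytes, macrophages and neutrophils. Its sham levels were 75.6, 98.5, 99.2, 87.0 and 71.0 on days 3, 5, 7, 14 and 28, and its TAB levels were 220.4, 296, 272, 156 and 131. All TAB samples lay above all sham samples, and those of days 3, 5 and 7 lay above the later TAB samples. The mean ratio of Itgam was 1.26 (SE 0.16, adjusted p = 0.0178), or 2.40-fold. Itgb2, the β2 chain (CD18), measured 83.4, 71.9, 78.4, 55.4 and 78.3 in sham and 318, 402, 353, 138 and 141 in TAB. Again no sham sample reached any TAB sample, and the TAB samples of days 14 and 28 were well below those of days 3, 5 and 7. The mean ratio of Itgb2 was 1.75 (SE 0.26, adjusted p = 0.0205), or 3.36-fold.

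Itgax encodes αX (CD11c), a chain of dendritic cells and some macrophages. It measured 7.73, 3.62, 2.74, 6.94 and 4.73 in sham and 29.9, 57.4, 35.1, 8.79 and 8.59 in TAB. The probe was found on the TAB arrays of days 5 and 7 and on no sham array, so most of these levels were not above background. With each sham array at its lowest found signal, or at the probe's own where that was higher, and the TAB group at its measured mean, which includes 3 arrays that did not find the probe, Itgax was at least 2.56-fold higher in TAB over the 5 days and at least 4.36-fold higher over days 3 to 7. The fit on the measured levels gave adjusted p = 0.0601 over the 5 days and 0.0188 over days 3 to 7, and over the 5 days it called Itgax without the replicate block (adjusted p = 0.0233) and with the trend and robust options (adjusted p = 0.0214). The other leukocyte α chains were not called. Itgal (αL, of the LFA-1 receptor) ranged from 92.3 to 148 in TAB and 94.0 to 132 in sham, with a mean ratio of 0.05 (SE 0.17, adjusted p = 0.871). Itgae (αE, of intraepithelial T cells) was higher in TAB on each day, from 48.2 to 67.3 in TAB and 35.5 to 50.7 in sham, and the groups overlapped (mean ratio 0.41, SE 0.12, adjusted p = 0.0689). It was called among probes found on all arrays (adjusted p = 0.0359). The β chains Itgb7, a partner of αE and α4 on lymphocytes, and Itgb3, the partner of αIIb and αV, were not called either, at 0.44 (SE 0.30, adjusted p = 0.354) and -0.0021 (SE 0.15, adjusted p = 0.995).

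Genes that mark leukocytes, monocytes and macrophages moved with these chains. Of 9 such markers, 7 were measured, and all 7 of them were higher in TAB in the same fit, among them Cd68 at 2.01 (SE 0.36, adjusted p = 0.0266) and Ptprc (CD45) at 1.25 (SE 0.25, adjusted p = 0.0309). Their summed level was 2972, 2190.1, 2428, 2556 and 2469 in sham on days 3 to 28 and 7858, 10646, 9149.8, 4735 and 3882 in TAB, with the highest TAB value on day 5, as for Itgam and Itgb2. Of the 4 measured T and NK cell markers 1 was higher (Cd3d, which was found on 2 arrays) and 1 lower (Cd3e), and the sum was 318 to 456 in TAB and 421 to 572 in sham. Among the 3 granulocyte markers 1 was higher, S100a8, which was found on no array. Their part in the result was not tested, and in a bulk sample more cells of a type and more RNA per cell cannot be told apart.

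**Figure D3:**
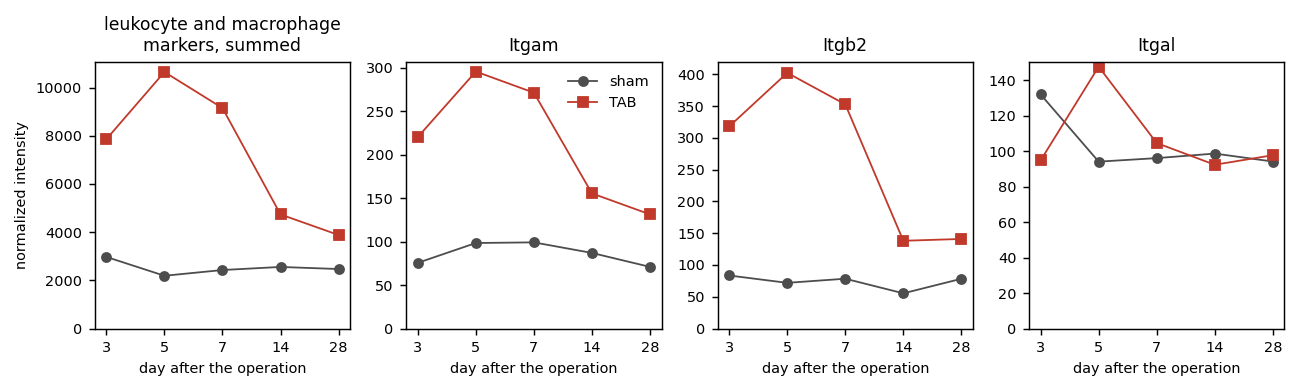
Normalized intensity (y axes, from 0) by day after the operation (x axes) of the 7 measured leukocyte, monocyte and macrophage markers summed, and of Itgam, Itgb2 and Itgal, with 1 sample per operation and day. The marker sum, Itgam and Itgb2 peak in TAB on day 5 and lie above sham on each day, whereas the TAB and sham lines of Itgal cross.

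Itga11 and Itga1, the collagen-binding chains that passed the limit, rose. Itga11 encodes α11, a fibroblast receptor for fibrillar collagen that pairs with β1. Probe 1 of Itga11 measured 131, 94.0, 155, 172 and 121 in sham and 491, 415, 534, 612 and 266 in TAB. The lowest TAB sample, of day 28, was above the brightest sham sample, and the mean ratio was 1.76 (SE 0.16, adjusted p = 0.0139), or 3.39-fold. Probe 2 of the gene measured 51.6, 50.5, 42.0, 48.6 and 30.3 in sham and 76.8, 69.3, 65.2, 85.9 and 52.6 in TAB. The groups again stood apart, though the mean ratio of this probe was smaller, at 0.66 (SE 0.11, adjusted p = 0.0243). Itga1 encodes α1, a receptor for basement membrane collagen. Its probe 1 measured 64.5, 64.0, 56.4, 67.0 and 72.6 in sham and 91.7, 115, 119, 105 and 84.9 in TAB, without overlap and with a mean ratio of 0.66 (SE 0.15, adjusted p = 0.0398). Probe 2 of Itga1 was found on 4 TAB arrays and 2 sham arrays and its groups overlapped, at 20.8 to 47.2 in TAB and 7.35 to 31.9 in sham (mean ratio 0.87, SE 0.24, adjusted p = 0.0585), and it was called with 50 added (adjusted p = 0.0468).

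Itga9 encodes α9, which pairs with β1 and binds tenascin-C, osteopontin and VCAM-1. It measured 761, 675, 805, 822 and 875 in sham and 1267, 1323, 1261, 1568 and 1378 in TAB. The ratio was even over the days, from 0.65 to 0.97, and no sample of either group reached the other (mean ratio 0.79, SE 0.11, adjusted p = 0.0184). Its relative Itga4 (α4, of the leukocyte receptor VLA-4) had levels of 4.49 to 13.7 in TAB and 2.70 to 8.23 in sham. No array found the Itga4 probe, so its ratios rest on levels not above background and none is given alone.

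The probes of the shared β1 chain were not both called. Probe 1 of Itgb1 measured 3130.3, 3887, 3239.9, 2964 and 3459.7 in sham and 4449, 5089.7, 4311, 4579 and 4316 in TAB. The groups did not overlap, and the mean ratio of 0.45 (SE 0.10, adjusted p = 0.0403) was the smallest among the 15 calls. Probe 2, which was dim, overlapped at 61.0 to 83.4 in TAB and 55.4 to 76.3 in sham, with a mean ratio of 0.17 (SE 0.15, adjusted p = 0.467). Itgb5 encodes β5, which pairs with αV to bind vitronectin. Its probe 1 measured 1408, 1484, 1293, 1368 and 1225 in sham and 2557, 2479.8, 2003, 2461 and 1895 in TAB (mean ratio 0.74, SE 0.10, adjusted p = 0.0184). Probe 2 of Itgb5 measured 1189.9, 1660.0, 1274, 1366 and 1356 in sham and 2190.5, 2449, 2139.6, 2496 and 1653 in TAB (mean ratio 0.67, SE 0.13, adjusted p = 0.03). For the latter the TAB sample of day 28 fell just below the sham sample of day 5, and the rest stood apart. Probe 3 of Itgb5 measured 434, 448, 424, 416 and 375 in sham and 515, 715, 605, 671 and 573 in TAB (mean ratio 0.55, SE 0.11, adjusted p = 0.0343). Thus all 3 probes of Itgb5 were called in the same direction, at ratios between 0.55 and 0.74.

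The α chain that pairs with β5 was not called. Itgav (αV) measured 326 to 418 in TAB and 304 to 433 in sham, with a mean ratio of 0.05 (SE 0.11, adjusted p = 0.799). Itga5 (α5, the fibronectin receptor) had a mean ratio of 0.12 (SE 0.14, adjusted p = 0.578) and Itga8 (α8, of smooth muscle and stromal cells) one of 0.05 (SE 0.13, adjusted p = 0.816). All 3 of these RGD-binding chains, named for the arginine, glycine and aspartate motif in their ligands, overlapped between the groups, and their ratios on single days stayed between -0.24 and 0.37. The laminin-binding chains were not called either. Itga7 (α7, the main laminin receptor chain of cardiomyocytes) measured 927 to 1717 in TAB and 859 to 1332 in sham (mean ratio 0.12, SE 0.13, adjusted p = 0.536). Itga6 (α6) measured 482 to 601 in TAB and 301 to 517 in sham and was at or above sham on each day, with a ratio from 0.01 to 0.77 (mean ratio 0.34, SE 0.14, adjusted p = 0.147). Itga3 (α3) had a mean ratio of 0.04 (SE 0.13, adjusted p = 0.873). The β4 chain Itgb4, the partner of α6 in epithelia, had one of -0.04 (SE 0.21, adjusted p = 0.925), and Itgb6, an epithelial partner of αV, one of -0.58 (SE 0.22, adjusted p = 0.127). Itgb6 was lower in TAB on 4 of 5 days, with the lowest ratio, -1.44, on day 14.

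Of the laminins, 3 chains of the vessel and muscle basement membrane rose, namely 1 α, 1 β and 1 γ chain. Lama4 (α4) measured 548, 406, 525, 533 and 456 in sham and 948, 814, 757, 807 and 589 in TAB. Each TAB sample was above each sham sample, with a mean ratio of 0.66 (SE 0.13, adjusted p = 0.0304). Lamb1 (β1) measured 846, 698, 765, 859 and 765 in sham and 1333, 1320.1, 1235, 1222 and 889 in TAB. Its groups stood apart too, although the TAB sample of day 28 came close to the sham samples (mean ratio 0.60, SE 0.13, adjusted p = 0.0379). Lamc1 (γ1), the γ chain of most laminins, measured 1074, 1114, 927, 956 and 974 in sham and 1728, 2068, 1577, 1919 and 1481 in TAB. The lowest TAB sample of Lamc1, of day 28, was above the highest sham sample, of day 5, and the mean ratio was 0.79 (SE 0.11, adjusted p = 0.0185), or 1.73-fold.

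Lama2 (α2), the chain of the cardiomyocyte basement membrane, measured 1333, 1548, 1453, 1184 and 1487 in sham and 1762, 1872, 1869.9, 2188 and 1597 in TAB. The groups did not overlap, but by a small margin on day 28, and the mean ratio of 0.41 (SE 0.14, adjusted p = 0.101) did not pass the threshold. Lama2 was called among probes found on all arrays (adjusted p = 0.0371), with 50 added (adjusted p = 0.0386), without the replicate block (adjusted p = 0.037) and with the trend and robust options (adjusted p = 0.0329), but not under the other 4 processing alternatives. Lamb2 (β2, of synaptic and vascular laminins) ranged from 8415 to 10398 in TAB and 8092 to 9138 in sham (mean ratio 0.13, SE 0.10, adjusted p = 0.41), although its ratio was above 0 on each day.

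Lama1 and Lamb3 fell. Lama1 (α1), a chain of embryonic and epithelial basement membranes, measured 114, 134, 119, 106 and 119.5 in sham and 52.5, 61.1, 43.2, 77.9 and 80.8 in TAB. All TAB samples were below all sham samples, and the lowest TAB levels were those of days 3, 5 and 7, and the mean ratio was -0.94 (SE 0.18, adjusted p = 0.0297), or a TAB level of 0.521 times that of sham. Lamb3 (β3, of epithelial basement membranes) measured 225, 318, 458, 213 and 418 in sham and 144, 137, 170.0, 192 and 257 in TAB. The sham samples of days 3 and 14 were below the TAB sample of day 28, so the groups overlapped, and the mean ratio was -0.83 (SE 0.20, adjusted p = 0.0469). The call on Lamb3 was lost with median scaling alone (adjusted p = 0.0638) and with quantile normalization within each operation (adjusted p = 0.0605). It was also lost with values below 1 set to 1 (adjusted p = 0.0942) and with each day left out in turn. Lama5 (α5) was also lower in TAB on each day, at 332 to 443 in TAB and 436 to 496 in sham, but was not called (mean ratio -0.31, SE 0.12, adjusted p = 0.123) except with 50 added (adjusted p = 0.0466). Probe 1 of Lama3 (α3) was found on 1 sham array alone, and Lamc3 (γ3) overlapped, at 67.3 to 86.8 in TAB and 52.1 to 102 in sham (mean ratio -0.09, SE 0.20, adjusted p = 0.804).

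The markers of epithelial or mesothelial cells were dim and none of the 4 measured was called, yet their summed level was 140 to 183 in TAB and 206 to 246 in sham, without overlap. The 2 measured Schwann cell markers summed to 159 to 211 in TAB and 209 to 316 in sham, and 0 were called. Their part in the fall of Lama1 and Lamb3 was not tested. The 6 endothelial markers had sums of 5930.0 to 8529 in TAB and 5736 to 7111 in sham, with 0 called. By contrast 3 of 5 measured fibroblast markers were higher in TAB, and the list summed to 40199 to 55522 in TAB and 30648 to 32692 in sham. Most of that sum was Dcn, which was not called, at 28808 to 35916 in TAB and 25920 to 28486 in sham. Pf4 was the 1 platelet marker called, at 2403 to 3773 in TAB and 1562 to 2031 in sham. It made up most of the list sum of 2529 to 3942 in TAB and 1659.5 to 2179 in sham. Of the 6 platelet markers 3 had a ratio above 0, and 2 were found on no array. Cspg4 was the 1 smooth muscle and pericyte marker called, and the only 1 of 6 with a ratio above 0. The sum of that list was 5258 to 7047 in TAB and 6999.5 to 7919 in sham. The part of these cell types in the levels of the collagen-binding and laminin chains was not tested.

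**Figure D4:**
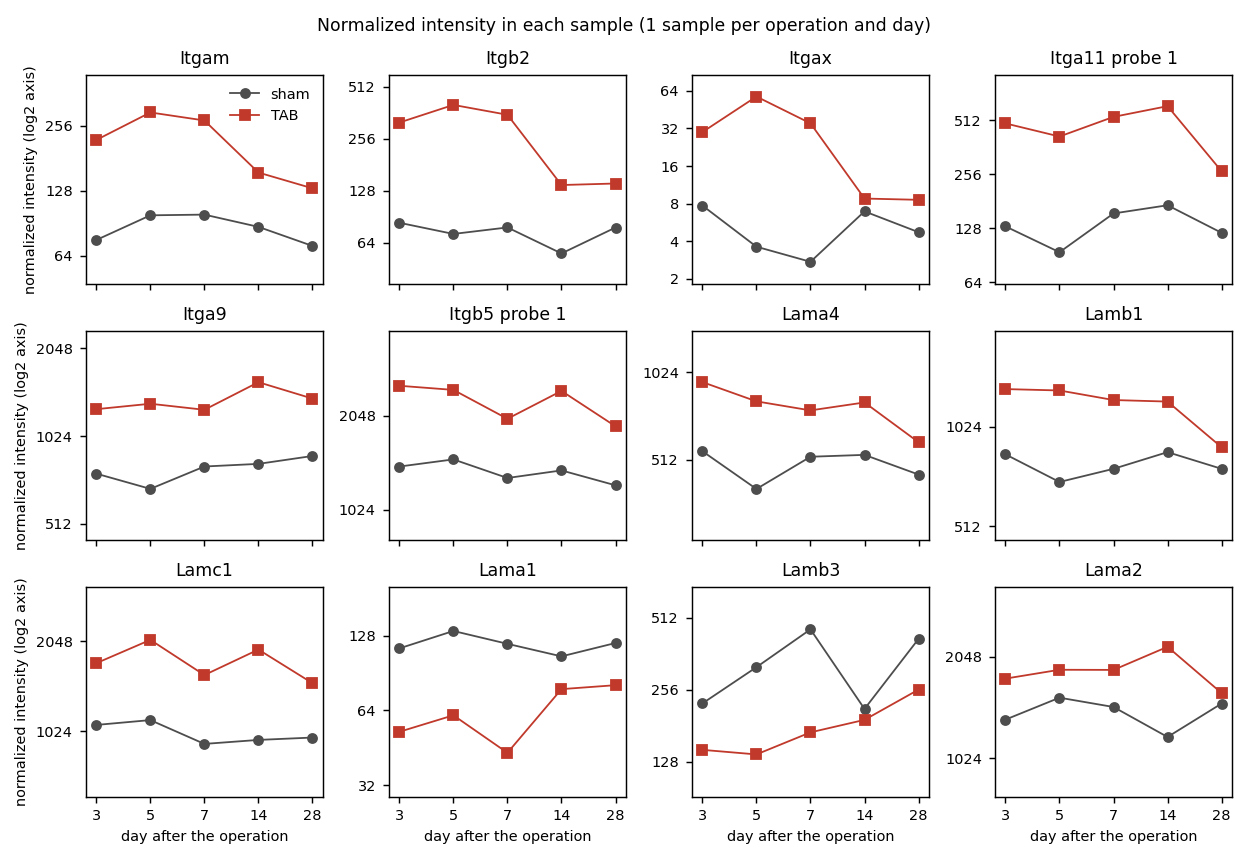
Normalized intensity (y axes, log2 scale) in each TAB (red squares) and sham (grey circles) sample by day after the operation (x axes) for 12 member probes; there is 1 sample per operation and day and no error bar. Itgam, Itgb2 and Itgax are highest in TAB on day 5, Itga9, Itgb5 probe 1 and Lamc1 stay above sham on each day, and Lama1 lies below sham on each day.

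The effect was then split into an early one, over days 3, 5 and 7, and a late one, over days 14 and 28, in 1 fit. In the early effect 12 member probes were higher and 2 lower, beside 8.64% and 7.18% of all probes. The lower ones were again Lama1, at -1.23 (SE 0.14, adjusted p = 0.0148), and Lamb3, at -1.10 (SE 0.21, adjusted p = 0.034). The higher ones were those of the mean effect without Itgb1 probe 1 and Itgb5 probe 3 and with Itgax added. Itgb2 had an early ratio of 2.19 (SE 0.18, adjusted p = 0.011), Itgam one of 1.53 (SE 0.12, adjusted p = 0.0104) and Itga11 probe 1 one of 1.94 (SE 0.18, adjusted p = 0.0123). Without day 3, 5 or 7 there were 0 early calls among the members and 0 over all probes. Without day 14 or 28 there were 6 among the members and 1905 over all probes.

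In the late effect limma called 0 of the 36 member probes, and 0% of all probes in either direction, at a lowest adjusted p of 0.183 among the members. At an unadjusted p below 0.05 there were 14 member probes, 12 higher and 2 lower, and 2736 of all probes. The late count was 7 among probes found on all arrays, 4 with 50 added to the intensities and 6 with the trend and robust options of limma. Over all probes of the same fits it was 303, 221 and 454. The late estimates were 1.49 (SE 0.22, adjusted p = 0.183) for Itga11 probe 1, 1.08 (SE 0.21, adjusted p = 0.231) for Itgb2, 0.86 (SE 0.14, adjusted p = 0.212) for Itgam and 0.80 (SE 0.17, adjusted p = 0.245) for Lamc1. The difference of late minus early was itself tested, and 0 member probes and 0% of all probes passed, with 5 member probes (1 higher, 4 lower) and 2086 of all at an unadjusted p below 0.05. It was -1.11 (SE 0.28, adjusted p = 0.429) for Itgb2, -0.66 (SE 0.19, adjusted p = 0.432) for Itgam and 0.73 (SE 0.22, adjusted p = 0.436) for Lama1, and close to 0 for Itga9 at 0.01 (SE 0.22, adjusted p = 0.993), Itgb5 probe 1 at -0.01 (SE 0.20, adjusted p = 0.995) and Lamc1 at 0.02 (SE 0.22, adjusted p = 0.979). Whether the late effect was smaller was thus not resolved for any chain with these 10 samples.

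On single days a probe was called DE when its ratio lay beyond 2 SDs of all ratios on that day, which has no replicate behind it. On day 3 the 3 member probes called were Itga11 probe 1, Itgb2 and Itgax, all higher, beside 3.07% of all probes higher and 2.33% lower. On day 5 Itga4 joined these 3, beside 3.77% and 1.69%, and on day 7 the called probes were those of day 3, beside 3.71% and 1.77%. On day 14 Itga11 probe 1 alone was called, beside 3.29% and 2.37%, and on day 28 Itga1 probe 2 and Itgb7, beside 3.36% and 2.55%. No member probe was called lower on a single day, although 3 such calls appeared with values below 1 set to 1, 3 among probes found on all arrays and 2 with 50 added. In all 6 of 36 member probes were called on at least 1 day, against 3575 of all 19976. Of these 6, Itga4, Itgax and Itga1 probe 2 were found on fewer than 10 arrays, and the day 28 call of Itgb7 rests on a low sham sample of 17.5.

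The sham samples of different days gave a measure of spread without banding. For Itga9, Itgam, Itgb2, Itgb5 probe 1, Itga11 probe 1, Lamc1 and Lama1 the absolute ratio exceeded the largest difference between any pair of sham samples on 5 of 5 days. That largest sham difference was 0.26 for Lamc1, 0.28 for Itgb5 probe 1, 0.34 for Lama1, 0.38 for Itga9, 0.48 for Itgam, 0.59 for Itgb2 and 0.87 for Itga11 probe 1 on the log2 scale. For Lamb3 it was 1.10 and was exceeded on 2 days. For Itga5, Itga6, Itga7, Itga8 and Itgav the ratio was within it on each day. The measure did not follow the calls throughout. Itgb4 and Lama5, which were not called, exceeded their largest sham difference on 4 days, Itgb4 with ratios of both signs. Itga11 probe 2, which was called, exceeded its own on 2 days.

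By chain type, the median of the mean ratios was 0.77 for the 4 collagen-binding α probes and 0.44 for the 10 integrin β probes, and with 50 added it fell to 0.38 and 0.32. Over the leukocyte α probes found on all arrays, Itgae, Itgal and Itgam, it was 0.38. It was 0.12 for the 3 laminin-binding and 0.05 for the 3 RGD-binding α probes. Among the laminins it was -0.05 over 5 α probes, 0.13 over 3 β probes and 0.35 over 2 γ probes, with 0.79 for the latter when values below 1 were set to 1, so that within each laminin kind chains that rose stood beside chains that did not.

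Ligands and intracellular partners were followed with lists of related genes, each by its brightest probe, and read beside the 7.47% and 6.73% of all probes called higher and lower and their median of -0.05. Of 25 integrin ligands other than laminins, 21 were measured, of which 10 were higher and 0 lower in TAB, with a median ratio of 0.50. The largest were Tnc (tenascin-C, a ligand of α9β1) at 4.06 (SE 0.92, adjusted p = 0.0401), Spp1 (osteopontin) at 3.90 (SE 0.58, adjusted p = 0.021), Col3a1 at 3.68 (SE 0.48, adjusted p = 0.0178) and Col1a2 at 3.49 (SE 0.35, adjusted p = 0.0142), the last 2 being fibrillar collagen chains. Tnc and Col3a1 were each found on 9 of the 10 arrays, so their ratios rest in part on a level not above background. Their sham levels went down to 17.6 and 11.8. Of 17 basement membrane partners and other receptors of laminin, 16 were measured, of which 3 were higher and 0 lower, with a median of 0.16. They were the network collagens Col4a1, at 1.60 (SE 0.19, adjusted p = 0.0152), and Col4a2, at 1.39 (SE 0.15, adjusted p = 0.0143), and nidogen Nid1, which links laminin to them, at 0.65 (SE 0.15, adjusted p = 0.0398). Of 32 genes of the adhesion complex inside the cell and at the membrane, 30 were measured, of which 7 were higher and 1 lower, with a median of 0.34. They included the actin crosslinker Actn1 at 1.74 (SE 0.33, adjusted p = 0.0297), the leukocyte kindlin Fermt3, which activates β2 integrins, at 1.54 (SE 0.28, adjusted p = 0.028), zyxin (Zyx) at 0.88 (SE 0.12, adjusted p = 0.0185) and the tetraspanin Cd9 at 0.75 (SE 0.11, adjusted p = 0.0205). The others called higher were Cd151, Ilk and Parva, and the gene called lower was Itgb1bp2 (melusin, a muscle protein that binds the β1 tail), at -0.60 (SE 0.14, adjusted p = 0.0454).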

How the data were processed

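Left ventricle RNA was labelled with Cy5 and hybridised to Phalanx Mouse Whole Genome OneArray slides. The authors deposited raw spot intensity per probe, 1 array per sample, with a background subtracted by a method not given in the sources used here and no scaling between arrays. Their detection p-values were not used. The deposited flags, whose meaning is not stated, were read as found or not found, and 40.2% to 47.3% of probes per array were not found. The number of arrays limits the precision.

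The arrays were scaled to a common median, probes below 1 on any array were dropped, quantile normalization of the 10 samples set each rank to its median (ties averaged), and log2 was taken. Probes were kept apart, whereas the study's rule of 1 probe per gene with the largest change was an alternative. The effects were fitted with limma 3.58.1 (R 4.3.3) over 19976 probes, with the day as a block because the ratios were taken within days, and adjusted by Benjamini-Hochberg. The code was tested on simulated data. Replicates 1 to 5 of each operation are days 3, 5, 7, 14 and 28. Bounds set undetected levels at the lowest signal among found probes on each array. Members are named except for 1 that is not reported here, per-sample levels are given for called or non-overlapping probes, and at most 4 called genes are detailed per related list. Members, chain types and lists were chosen with earlier results of these data known. Alternatives were median scaling alone, quantile normalization within each operation, the mean of each rank, flooring at 1, probes found on all arrays, an offset of 50, each day left out, no day block, limma's trend and robust options, 1 probe per gene, and a fixed log2 limit of 1 for single days. Array symbols were kept, and all 37 match a current symbol of GRCm38.p6.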

Additional observations from a re-analysis of the deposited data

Results flagged for a closer look

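Itga3, Itga8 and Itgav were above sham on days 3, 5 and 7 and below sham on days 14 and 28. Their late minus early differences were -0.41, -0.38 and -0.25 on the log2 scale, and limma gave adjusted p = 0.543, 0.553 and 0.634, so the change of sign did not pass the threshold.

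Single samples stood far from the rest of their group for 4 chains. Itgal was highest in the TAB sample of day 5, at 147.5, with the other TAB samples between 92.3 and 104.5, and highest among the sham samples on day 3, at 131.9, with the others between 94.0 and 98.6. The TAB sample of day 5 was the lowest for Itgb4, at 19.1 against 39.3 or more elsewhere. The sham sample of day 28 was the lowest for Itgb7, at 17.5 against 53.4 or more. The TAB sample of day 28 was the lowest for Lamb1, at 888.7 against 1222 or more in TAB. These were 5 of 72 groups examined, of which chance marks about 1 in 20.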

How the results depend on the processing

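The counts rest on 5 samples per operation. The mean calls (15) ranged from 14 to 18 under 7 alternatives, and from 0 to 12 with each day left out. They were 4 when values below 1 were set to 1, which brings in very dim probes. Over all probes these counts were 2631 to 4890, 13 to 2773 and 371. With 1 probe per gene there were 11 (largest change) or 12 (brightest). The early calls (14) were 4 with that floor and 0 to 6 with a day left out, beside 595 and 0 to 1905 over all probes. The late calls (0) became 7 on probes found on all arrays, 4 with 50 added and 6 with trend and robust options. Over all probes they became 303, 221 and 454, and the cause was not tested. The late minus early calls stayed at 0 under all of these. The 13 single-day calls became 29 (23 higher, 6 lower) at an absolute log2 ratio of at least 1, and were 9 to 12 with a day left out. The 15 non-overlapping probes were 13 to 18.

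With 50 added, which shrinks dim probes, the chain medians fell to 0.38 for collagen-binding α, 0.43 for α4 and α9 (0.89 before, with Itga4 found on no array), 0.33 for leukocyte α (0.84 before, with Itgax found on 2) and 0.32 for integrin β chains. The leukocyte α median was 0.41 with the floor and 0.38 on probes found on all arrays, and the laminin γ median was 0.79 with the floor. Leaving out a day moved the integrin β median between 0.32 and 0.52. Over all probes the split of 1492 higher and 1344 lower was 1747 and 884 with median scaling alone and 1856 and 979 with normalization within each operation; the members had 13 higher and 1 lower in both.

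The day paired the samples only by label. Deviations of same-day samples from their group means correlated at 0.11, 0.0015, 0.05, 0.02 and 0.02 on days 3 to 28. Without this replicate block there were 17 mean calls (15 higher, 2 lower), 14 early, 0 late and 0 late minus early ones. Over all probes these counts were 3875, 4024, 32 and 2. Under all alternatives that gave a value, the 17 detailed probes kept their direction. Itgb1 probe 1, Itgb5 probe 3 and Lamb3 were called with no day left out in turn, and Itga11 probe 1 and Itgam without 2 of the days.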
